A study of Mus musculus with 8 samples.

Results

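The Hox genes are the members of the Hoxa, Hoxb, Hoxc and Hoxd clusters, and they were followed here in mouse blood stem and progenitor cells. A probe set was taken as a member where the platform annotation gave it 1 gene symbol made of Hox, a cluster letter and a number, and where a gene had several, the brightest by its mean on the 8 arrays stood for it. This gave 33 Hox genes (from 48 probe sets) among 18193 genes, of 39 Hox genes that RefSeq lists for GRCm38.p6. The other 6 were not analysed here, and 3 probe sets shared by a pair of symbols were left out.

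The study hybridised RNA of non-transformed CD45.1+ cells to 8 Affymetrix mouse arrays, 2 in each of 4 groups. In leukemic mice, CD45.1+ hosts had received CD45.1+ marrow together with an equal number of CD45.2+ marrow cells that carried BCR-ABL x SCL-tTA. The fusion kinase BCR-ABL drives chronic myeloid leukaemia, and tTA, driven by SCL regulatory sequence in early blood cells, activates the transgene when the tetracycline in the water is withdrawn. Normal mice were made without the BCR-ABL transgene, and the series' design text has the HSC sorted 4 weeks after Tet water was removed. The sorted CD45.1+ cells were thus not of the transgenic CD45.2+ marrow, and since the hosts were CD45.1+ too, the marker does not tell donor cells from remaining host cells. HSC are the CD45.1+ CD150+ CD48- part of KSL cells (lineage-negative, Kit+ and Sca-1+), and KSL is the whole CD45.1+ gate, so that the KSL sort includes the HSC gate. Below, cells of leukemic mice are called exposed and cells of normal mice normal. Ages, sexes and the number of animals behind an array are not given in the labels, and nor is whether replicate arrays stand for different animals, so p-values measure the spread between these arrays, and their number limits the precision.

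Hox genes encode homeodomain transcription factors and are best known for giving positions along the body axis, with genes of equal number in different clusters (paralogues) descending from a shared ancestor. In blood formation, genes of the Hoxa and Hoxb clusters are known to be active in stem and early progenitor cells and to be switched off as cells mature. Hox proteins bind DNA together with TALE homeodomain partners of the Meis and Pbx families, MLL complexes keep Hox clusters active, and Polycomb complexes keep them silent.

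The sort labels were first set against their own markers. Slamf1, which encodes CD150, lay between 8.23 and 9.36 (log2 RMA value) on the 4 HSC arrays and between 5.27 and 7.06 on the 4 KSL arrays. Cd48 lay between 6.19 and 8.12 in HSC and between 10.17 and 10.44 in KSL, and Kit between 9.16 and 10.80 on all 8 arrays. The mean of 11 long-term HSC markers was 8.13 to 8.66 in HSC and 5.60 to 6.25 in KSL. Arrays of 1 group correlated across genes (which are not independent replicates) with r = 0.965 in normal HSC, 0.958 in exposed HSC, 0.988 in normal KSL and 0.994 in exposed KSL. The median SD between replicates was 0.20, 0.21, 0.11 and 0.094 in the same order, so the HSC arrays were the more variable ones. Array 1 of both normal groups had a male level of Y-linked genes, with a mean of 8.31 and 8.15 over 3 such genes against 3.72 to 5.39 on the other 6 arrays.

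Hox transcripts were read mainly from the Hoxa and Hoxb clusters. A gene counted as above the dim level where its mean exceeded 4.97 in at least 1 group, the 95th percentile of 39 smell receptor genes that blood cells are not known to use. By this measure 7 of 9 Hoxa, 6 of 9 Hoxb, 3 of 7 Hoxc and 1 of 8 Hoxd genes were above it, 17 of 33 in all. By the mean over all 8 arrays, 15 of 33 Hox genes were above it, against 69.5% of all genes. The Hoxd gene counted, Hoxd9, was just above it, with means of 4.99 in normal and 5.10 in exposed HSC. Hoxc8, Hoxd1 and Hoxd10 sat at the floor of the deposited values (3.32) on all 8 arrays, where no order can be read. Levels of different genes come from different probe sets and were not compared with each other.

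**Figure D1:**
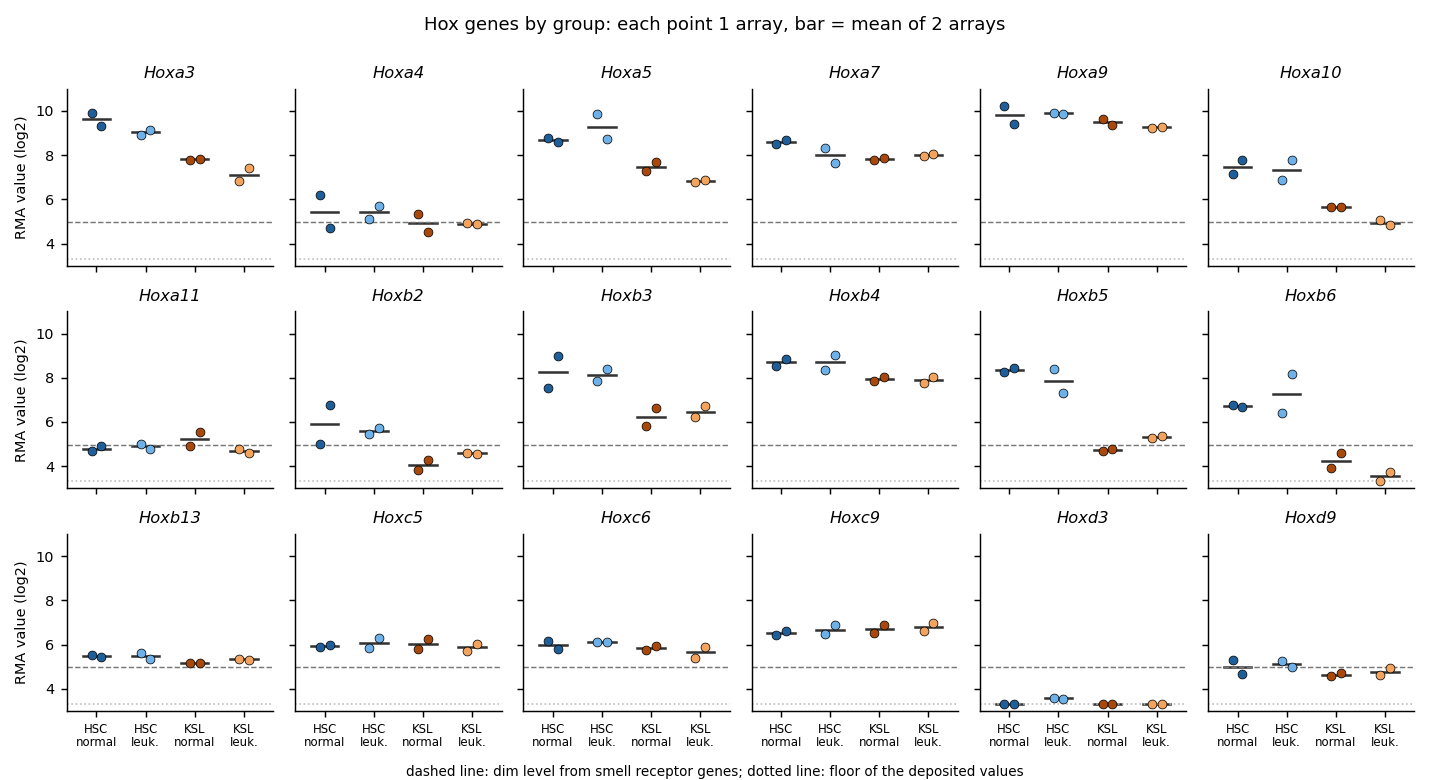
Log2 RMA value of the 18 Hox genes described one by one, by group (leuk. marks exposed cells of leukemic mice); each point is 1 array, the bar is the mean of 2 arrays, the dashed line the dim level of 4.97 and the dotted line the floor of 3.32. Hoxa3, Hoxa5, Hoxa10, Hoxb2, Hoxb3, Hoxb4, Hoxb5 and Hoxb6 lay higher on all 4 HSC arrays than on all 4 KSL arrays, and the 3 Hoxc genes overlapped.

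The widest differences ran between the sorted fractions. In normal mice, the median HSC minus KSL difference over 33 Hox genes was 0.31 on the log2 scale, with 22 genes above 0 and 5 below, against a median of 0.00020 over all 18193 genes (9090 above and 7586 below). In leukemic mice it was 0.21, with 23 above 0 and 7 below, against 0.0094 over all genes (9222 above and 7482 below). The difference lay in the Hoxa cluster (median 0.75 in normal and 0.63 in leukemic mice) and in the Hoxb cluster (0.76 and 0.80), while both other clusters had medians of 0.00. Where a sorted population has more of a transcript, more expressing cells and more RNA per cell cannot be told apart. Limma, fitted to all genes with Benjamini-Hochberg adjustment, passed 1 Hox gene in normal mice (1.80% of all genes passed) and 6 in leukemic mice (5.86% of all genes). At an unadjusted p under 0.05 there were 11 in normal mice (all genes, 16.2%) and 9 in leukemic mice (all genes, 23.0%). Both HSC arrays lay above both KSL arrays for 15 Hox genes in normal mice (all genes, 24.2%) and 13 in leukemic mice (28.2%), and below for 2 in each (19.3% and 23.2%). Averaged over both kinds of mice, a comparison added after the data were seen, 6 Hox genes passed (9.68% of all genes), Hoxa3, Hoxa5, Hoxa10, Hoxb5, Hoxb6 and Hoxd3, and 11 had an unadjusted p under 0.05 (26.5%). All 4 HSC arrays lay above all 4 KSL arrays for 8 Hox genes (9.40%) and below for 1, Hoxd12 (7.44%).

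**Figure D2:**
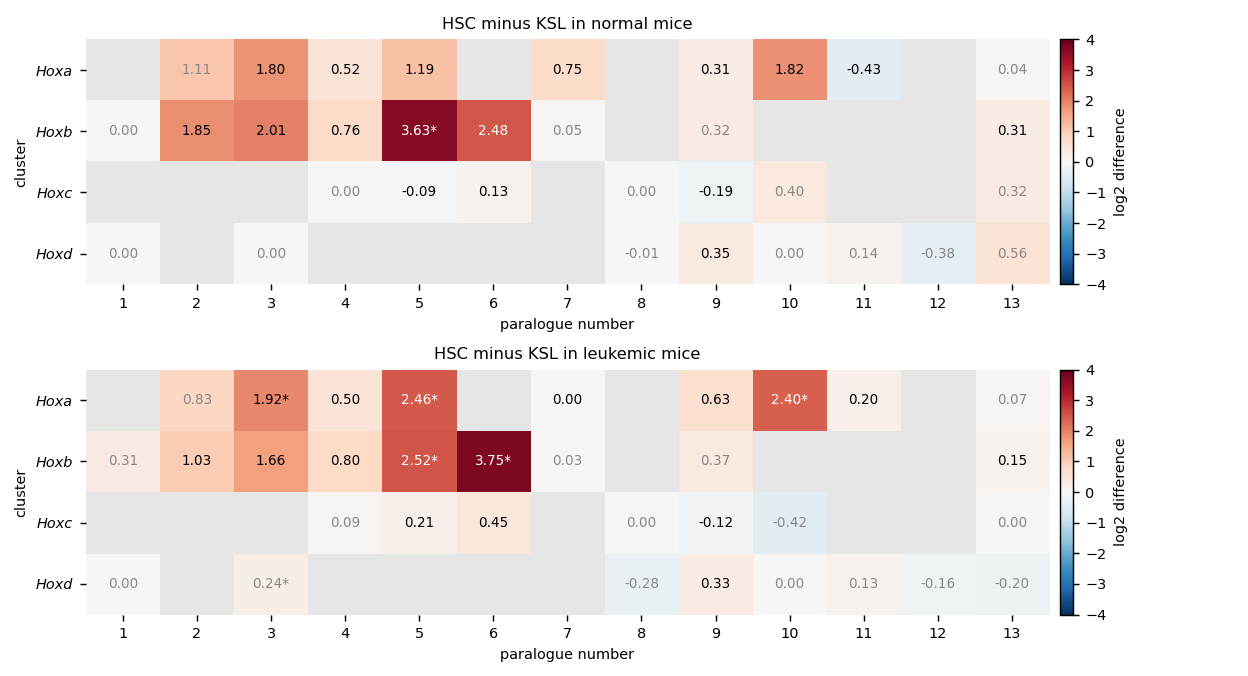
HSC minus KSL log2 difference of each Hox gene by cluster (rows) and paralogue number (columns), in normal (top) and leukemic mice (bottom); grey cells have no probe set of their own or no gene, grey numerals mark genes not above the dim level, and an asterisk marks an adjusted p under 0.05. Large differences stand in Hoxa and Hoxb up to paralogue 6 and at Hoxa10, with 3.63 for Hoxb5 in normal and 3.75 for Hoxb6 in leukemic mice.

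By paralogue number, the median difference in normal mice was 1.48 for number 2, 1.80 for number 3, 0.52 for number 4, 1.19 for number 5 and 1.31 for number 6. In leukemic mice these medians were 0.93, 1.66, 0.50, 2.46 and 2.10. For numbers 7, 8 and 9 they were 0.40, -0.0036 and 0.31 in normal and 0.015, -0.14 and 0.35 in leukemic mice. Numbers 1, 10, 11, 12 and 13 had medians of 0.00, 0.40, -0.14, -0.38 and 0.31 in normal and 0.16, 0.00, 0.16, -0.16 and 0.032 in leukemic mice, number 10 including Hoxa10. Each number holds 1 to 4 measured genes. All genes of numbers 1, 8 and 12 were below the dim level in every group. So were those of numbers 10, 11 and 13 except Hoxa10, Hoxa11 and Hoxb13, and also Hoxa2, Hoxb7, Hoxb9, Hoxc4 and Hoxd3. Where a gene lies below the dim level, a small difference is no reading of equal levels in the fractions. Paralogues did not all go together. For number 5, Hoxc5 had a difference of -0.087 in normal mice against 1.19 for Hoxa5 and 3.63 for Hoxb5.

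Hoxb5, a gene whose transcription is known to mark long-term HSC in mice, differed most clearly between the fractions. Its log2 values were 8.26 and 8.44 in normal HSC, 8.38 and 7.33 in exposed HSC, 4.67 and 4.76 in normal KSL, and 5.28 and 5.38 in exposed KSL. Every HSC array lay above every KSL array, and normal KSL had a mean below the dim level. Where this is so, here and below, a fold is given only as a bound with the dim group set at the dim level, and the measured log2 difference is uncertain in size. The HSC minus KSL difference was 3.63 ± 0.35 (SE of the fit, n = 2 per group) in normal mice, at least 10.4-fold, with an adjusted p of 0.0265 from limma. In leukemic mice it was 2.52 ± 0.35, 5.75-fold, with an adjusted p of 0.0335. The normal-mouse call was lost without either normal HSC array, either normal KSL array or either exposed KSL array, but the difference stayed at 3.54 to 3.72 throughout. The exposed KSL arrays enter this comparison only through the pooled spread, so the loss does not show that 1 array carried the difference. Values in brackets after an array left out or another setting, here and below, are adjusted p. The leukemic-mouse call was lost without either normal HSC array (0.0569), either normal KSL array (0.0829) or exposed KSL array 1 (0.185) or 2 (0.156), and the difference ran from 2.00 to 3.05. Averaged over both kinds of mice, Hoxb5 was 3.08 ± 0.25 higher in HSC (adjusted p = 0.00738), and of the 8 arrays left out in turn only exposed KSL array 1 ended this call (0.0505).

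Hoxb6, its neighbour in the cluster, read 6.78 and 6.66 in normal HSC, 6.39 and 8.18 in exposed HSC, 3.90 and 4.58 in normal KSL, and 3.32 and 3.76 in exposed KSL. Both KSL groups lay below the dim level and 1 exposed KSL array was at the floor, so both folds are bounds. In leukemic mice Hoxb6 was higher in HSC by 3.75 ± 0.64, at least 4.98-fold (adjusted p = 0.0485). In normal mice the difference was 2.48 ± 0.64, at least 3.36-fold (adjusted p = 0.168). The exposed HSC arrays lay further from each other than the normal ones, and without exposed HSC array 2 the leukemic-mouse difference was 2.85 (0.0437). The call was lost without either normal HSC array (0.0772), either normal KSL array (0.103) or exposed KSL array 1 (0.233) or 2 (0.186), with array weights (0.0551) and with an intensity trend and robust spread (0.0523).

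Hoxb4, which is known to expand HSC when overexpressed, read 8.54 and 8.87 in normal HSC, 8.37 and 9.01 in exposed HSC, 7.86 and 8.04 in normal KSL, and 7.77 and 8.02 in exposed KSL. Its groups did not overlap between fractions, at a difference of 0.76 ± 0.26 in normal mice (adjusted p = 0.261) and 0.80 ± 0.26 in leukemic mice (0.163). Hoxb3, whose gene model overlaps that of Hoxb4, read 7.52 and 8.98 in normal HSC, 7.86 and 8.40 in exposed HSC, 5.84 and 6.65 in normal KSL, and 6.21 and 6.74 in exposed KSL. The fractions did not overlap here either, but the normal HSC arrays lay far apart. Its difference was 2.01 ± 0.60 in normal mice (adjusted p = 0.214) and 1.66 ± 0.60 in leukemic mice (0.201).

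Hoxb2, which is known for patterning the hindbrain, read 5.02 and 6.78 in normal HSC, 5.48 and 5.75 in exposed HSC, 3.82 and 4.27 in normal KSL, and 4.61 and 4.56 in exposed KSL. It was above the dim level in HSC only, and its normal HSC arrays lay further apart than those of any other Hox gene. The difference was 1.85 ± 0.60 in normal mice (adjusted p = 0.245) and 1.03 ± 0.60 in leukemic mice (0.401). Without normal HSC array 1 it became 2.74 in normal mice and passed (0.0388). Hoxb13, the gene at the far end of the cluster, read 5.51 and 5.45 in normal HSC, 5.63 and 5.34 in exposed HSC, 5.19 and 5.15 in normal KSL, and 5.37 and 5.29 in exposed KSL, so that the exposed groups overlapped, and its difference was 0.31 ± 0.10 in normal mice (adjusted p = 0.256).

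In the Hoxa cluster, Hoxa3, Hoxa5 and Hoxa10 passed in leukemic mice. Hoxa3, which is known for its role in thymus development, read 9.90 and 9.33 in normal HSC, 8.93 and 9.14 in exposed HSC, 7.79 and 7.83 in normal KSL, and 6.82 and 7.40 in exposed KSL. All HSC arrays lay above all KSL arrays, and within each fraction both exposed arrays lay below both normal ones. It was higher in HSC by 1.92 ± 0.28 in leukemic mice, 3.79-fold (adjusted p = 0.0348), with a difference of 1.80 ± 0.28 in normal mice (0.0652). The leukemic-mouse call was lost without exposed HSC array 1 (0.0673) or 2 (0.0831), either normal KSL array (0.0858) or exposed KSL array 1 (0.161) or 2 (0.0994), and with array weights (0.0758).

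Hoxa5, which is known to favour myeloid over erythroid fate, read 8.76 and 8.58 in normal HSC, 9.86 and 8.73 in exposed HSC, 7.30 and 7.67 in normal KSL, and 6.80 and 6.87 in exposed KSL. The fractions did not overlap, and exposed HSC array 1 held the highest value of the gene. It was higher in HSC by 2.46 ± 0.40 in leukemic mice, 5.49-fold (adjusted p = 0.043), with 1.19 ± 0.40 in normal mice (0.256). The call was lost without either normal HSC array (0.0688), either normal KSL array (0.0945) or exposed KSL array 1 (0.213) or 2 (0.188). Without exposed HSC array 1 the difference was 1.89 (0.0291).

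Hoxa10, a regulator of early blood progenitors and of the uterus, read 7.16 and 7.77 in normal HSC, 6.89 and 7.79 in exposed HSC, 5.65 and 5.65 in normal KSL, and 5.06 and 4.83 in exposed KSL. The fractions were apart on every array, and exposed KSL straddled the dim level, with a mean below it. It was higher in HSC by 2.40 ± 0.37 in leukemic mice, at least 5.17-fold (adjusted p = 0.0383), with 1.82 ± 0.37 in normal mice (0.109). The call was lost without either normal HSC array (0.051), exposed HSC array 2 (0.0558), either normal KSL array (0.0938) or exposed KSL array 1 (0.186) or 2 (0.184).

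Because Hoxa3, Hoxa5 and Hoxa10 passed together and their neighbour Hoxa7 did not, the 250 bases before their RefSeq start sites are printed with that of Hoxa7 for contrast, from the RefSeq promoter table of GRCm38.p6. All 4 genes lie on the minus strand of chromosome 6, and sequences run 5′ to 3′ on that strand. The windows are chr6:52213068-52213317 for Hoxa3, chr6:52204588-52204837 for Hoxa5, chr6:52240855-52241104 and chr6:52234940-52235189 for the 2 listed starts of Hoxa10, and chr6:52218574-52218823 for Hoxa7. Capitals mark matches, on either strand, to the core letters of a Meis site (TGACAG), a Hox-Pbx site (TGATTNAT), a TATA box (TATAAA) or a CCAAT box (CCAAT).
Hoxa3: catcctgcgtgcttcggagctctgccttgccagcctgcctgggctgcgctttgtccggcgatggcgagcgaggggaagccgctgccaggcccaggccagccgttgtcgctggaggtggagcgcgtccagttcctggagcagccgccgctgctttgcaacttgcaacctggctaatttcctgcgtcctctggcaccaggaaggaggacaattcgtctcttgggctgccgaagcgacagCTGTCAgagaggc
Hoxa5: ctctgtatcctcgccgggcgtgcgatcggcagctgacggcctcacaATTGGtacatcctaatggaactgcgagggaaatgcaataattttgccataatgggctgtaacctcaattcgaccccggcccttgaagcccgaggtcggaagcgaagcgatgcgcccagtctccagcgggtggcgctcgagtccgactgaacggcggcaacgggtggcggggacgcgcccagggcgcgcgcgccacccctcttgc
Hoxa10 start 1: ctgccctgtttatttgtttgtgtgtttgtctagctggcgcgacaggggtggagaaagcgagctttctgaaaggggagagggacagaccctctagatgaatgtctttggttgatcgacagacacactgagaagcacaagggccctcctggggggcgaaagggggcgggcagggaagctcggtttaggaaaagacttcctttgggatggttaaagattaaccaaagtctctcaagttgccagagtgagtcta
Hoxa10 start 2: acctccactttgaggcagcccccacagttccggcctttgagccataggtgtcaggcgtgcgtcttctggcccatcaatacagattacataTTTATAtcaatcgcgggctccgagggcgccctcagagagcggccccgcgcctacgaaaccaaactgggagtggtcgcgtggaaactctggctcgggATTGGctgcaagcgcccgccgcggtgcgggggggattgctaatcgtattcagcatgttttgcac
Hoxa7: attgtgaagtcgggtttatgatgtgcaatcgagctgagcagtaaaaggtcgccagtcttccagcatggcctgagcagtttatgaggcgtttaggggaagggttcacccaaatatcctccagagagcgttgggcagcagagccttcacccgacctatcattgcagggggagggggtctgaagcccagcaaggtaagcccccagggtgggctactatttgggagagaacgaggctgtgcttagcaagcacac

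The Hoxa3 window held 1 match to the Meis letters, whose first base is at position -13 from the start. Hoxa5 held 1 match to CCAAT at position -204. The second listed start of Hoxa10 had a TATAAA match at -160 and a CCAAT match at -64, and its first start and the Hoxa7 window had none of the 4. Over all 32851 windows of this length, the Meis letters occurred in 15.9%, the Hox-Pbx letters in 2.82%, TATAAA in 12.4% and CCAAT in 33.8%. In the 21 windows found for 19 of the 33 Hox genes, CCAAT was in 11 windows, Meis in Hoxa2 and Hoxa3, Hox-Pbx in Hoxa2 and Hoxd11, and TATAAA in Hoxa10 and Hoxd13. A match is a run of letters, not a tested site. Hoxb3, Hoxb5 and Hoxb6 were not among the genes found.

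Hoxa9, the Hox gene best known for its role in myeloid leukaemia, read 10.21 and 9.41 in normal HSC, 9.91 and 9.88 in exposed HSC, 9.63 and 9.38 in normal KSL, and 9.25 and 9.28 in exposed KSL. The normal groups overlapped and the exposed groups did not. The difference was 0.31 ± 0.28 in normal mice (adjusted p = 0.69) and 0.63 ± 0.28 in leukemic mice (0.272). Its other probe set, with nearly the same mean, read 10.62 and 10.32, 9.70 and 9.79, 9.27 and 9.38, and 8.94 and 8.87 in the same order of groups, so that every HSC array lay above every KSL array. With the most variable probe set standing for each gene, which is this one for Hoxa9, the difference was 1.15 in normal mice (adjusted p = 0.0261) and 0.84 in leukemic mice (0.0305), and passed in both.

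Hoxa7, which is often active together with Hoxa9 in leukaemia, read 8.50 and 8.66 in normal HSC, 8.32 and 7.66 in exposed HSC, 7.80 and 7.88 in normal KSL, and 7.95 and 8.03 in exposed KSL. The fractions stood apart in normal mice, at 0.75 ± 0.23 (adjusted p = 0.217), and overlapped in leukemic mice, at -0.0036 ± 0.23 (1). Without exposed HSC array 1 (0.0451) or 2 (0.0451) its normal-mouse difference passed.

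Hoxa4 read 6.18 and 4.72 in normal HSC, 5.13 and 5.68 in exposed HSC, 5.35 and 4.51 in normal KSL, and 4.91 and 4.90 in exposed KSL, around the dim level and with normal HSC arrays far apart. Hoxa11, known for limb and uterus development, read 4.68 and 4.90, 5.02 and 4.79, 4.92 and 5.53, and 4.80 and 4.62 in the same order. It was above the dim level in normal KSL only, and no comparison passed for either gene in limma as fitted to all 8 arrays.

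The Hoxc genes above the dim level had overlapping fractions in normal mice. Hoxc5 read 5.91 and 5.97 in normal HSC, 5.85 and 6.31 in exposed HSC, 5.80 and 6.26 in normal KSL, and 5.70 and 6.04 in exposed KSL. Hoxc6 read 6.16 and 5.81, 6.10 and 6.13, 5.75 and 5.96, and 5.41 and 5.91 in the same order, and Hoxc9 read 6.42 and 6.62, 6.47 and 6.88, 6.51 and 6.91, and 6.62 and 6.97. In leukemic mice the fractions of Hoxc6 stood apart and those of the other 2 genes overlapped. The HSC minus KSL differences of Hoxc5, Hoxc6 and Hoxc9 were -0.087, 0.13 and -0.19 in normal and 0.21, 0.45 and -0.12 in leukemic mice, and none passed.

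In the Hoxd cluster, Hoxd9 read 5.32 and 4.66 in normal HSC, 5.24 and 4.97 in exposed HSC, 4.57 and 4.71 in normal KSL, and 4.62 and 4.92 in exposed KSL, with a difference of 0.35 ± 0.26 in normal mice (adjusted p = 0.612). Hoxd3 was at the floor on 6 arrays and at 3.58 and 3.55 in exposed HSC. It passed in leukemic mice, where its difference of 0.24 ± 0.028 (adjusted p = 0.0226) lies between groups that are both far below the dim level, so no fold is given. After shifting each array to a common median the adjusted p was 0.398, and the call was lost without either normal KSL array (0.065) or exposed KSL array 1 (0.154) or 2 (0.134). The other 15 Hox genes, all below the dim level in every group, ranged from the floor to 5.37 (Hoxc10 on exposed KSL array 2). Among them Hoxd12 lay between 4.30 and 4.60 in HSC and between 4.64 and 4.88 in KSL, with a difference of -0.38 ± 0.11 in normal mice (adjusted p = 0.211).

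Probe sets of 1 gene did not always read alike. Of the Hox genes, 22 had 1 probe set and 11 had several, and 6 of these (Hoxa3, Hoxa5, Hoxa9, Hoxb3, Hoxb4 and Hoxc5) had more than 1 above the dim level. The second probe sets of Hoxa5, Hoxb3 and Hoxb4 gave HSC minus KSL differences of 1.03, 1.68 and 1.23 in normal mice and 1.34, 1.37 and 0.65 in leukemic mice, in the direction of the ones used. Hoxa3 was the exception: its 3 dimmer probe sets gave 0.41, 0.33 and 0.89 in normal mice and 1.56, -0.076 and -0.70 in leukemic mice. With the mean of all 4 its leukemic-mouse difference was 0.68 (adjusted p = 0.288). The RefSeq model of Hoxa3 spans those of Hoxa4, Hoxa5 and Hoxa6, and that of Hoxb5os overlaps Hoxb5 and Hoxb6, so which transcripts these probe sets read was not settled here. Hoxa10's other probe set was at the floor on all 8 arrays. On the second probe set of Hoxb4, exposed HSC array 1 read 5.24, below every KSL array. The fractions of leukemic mice thus overlapped there, unlike on the one used.

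**Figure D3:**
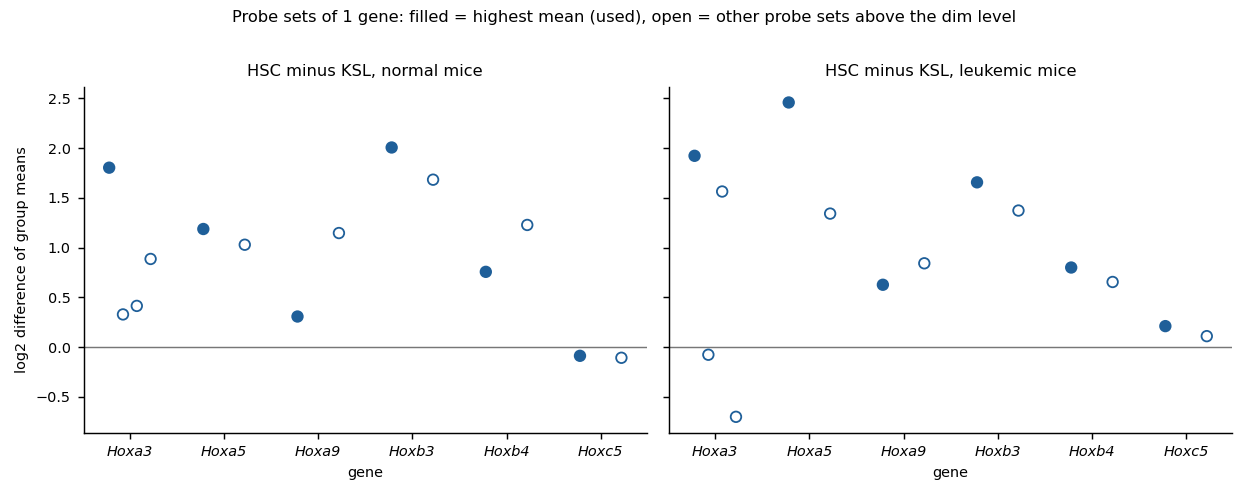
HSC minus KSL log2 difference of group means for each probe set above the dim level in at least 1 group, for the 6 Hox genes with more than 1 such probe set, in normal (left) and leukemic mice (right); filled points are the probe sets with the highest mean, and each point is the difference of 2 means of 2 arrays. All probe sets of Hoxa5, Hoxa9, Hoxb3 and Hoxb4 lie above 0 in both panels, while those of Hoxa3 run from -0.70 to 1.92 in leukemic mice.

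Values that moved together with the sorted fraction stand beside these differences, and their part in them was not tested. The 10 granulocyte-monocyte progenitor markers had a mean of 6.51 to 6.72 in normal HSC, 8.39 to 8.41 in exposed HSC and 10.99 to 11.33 in KSL. The 9 markers of multipotent and lymphoid-primed progenitors averaged 6.40 to 6.93 in HSC and 7.41 to 8.75 in KSL, and the 5 megakaryocyte markers 8.70 to 10.04 in HSC and 6.90 to 8.43 in KSL. Mast cell and basophil markers averaged 4.91 to 6.21 in HSC and 7.34 to 8.37 in KSL, and T and NK cell markers 4.95 to 5.76 and 6.68 to 7.60. Endothelium markers averaged 7.10 to 7.72 in HSC and 6.09 to 6.63 in KSL, and marrow stroma markers 5.30 to 5.80 and 4.86 to 4.97. Means of neutrophil and monocyte, erythroid and B cell markers overlapped between the fractions. The hybridisation spike-in BioB was at 9.90 to 10.32 on HSC arrays and 9.38 to 9.77 on KSL arrays, and BioC at 11.97 to 12.36 and 11.38 to 11.69. With a term for the male-pattern arrays, limma passed 0 Hox genes in normal and 0 in leukemic mice, with 3.63 for Hoxb5 (adjusted p = 0.0671) and 2.52 (0.0686). Without these arrays the normal-mouse difference of Hoxb5 was 3.68 (0.186).

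The next question was whether Hox genes of non-transformed cells differed between leukemic and normal mice. In HSC, limma passed 0 of 33 Hox genes (0.0989% of all genes passed), and 2 had an unadjusted p under 0.05 (13.8% of all genes). In KSL it passed 0 (0.0440%) and 0 had an unadjusted p under 0.05 (7.95%). The median difference over the Hox genes was 0.00 in both fractions, as it was over all genes. Both exposed HSC arrays lay above both normal ones for 2 Hox genes (16.0% of all genes) and below for 4 (16.7%). Both exposed KSL arrays lay above both normal ones for 5 (20.5%) and below for 6 (24.1%). In each fraction the shares of Hox genes, 6.06% and 12.1% in HSC and 15.2% and 18.2% in KSL, were under those of all genes. These shares count 16 Hox genes below the dim level in every group, 3 of them at the floor on all 8 arrays. The 6 lower in KSL were all above the dim level in a group, as were the 5 higher except Hoxd13. The shares are thus no reading of the Hox genes above that level.

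**Figure D4:**
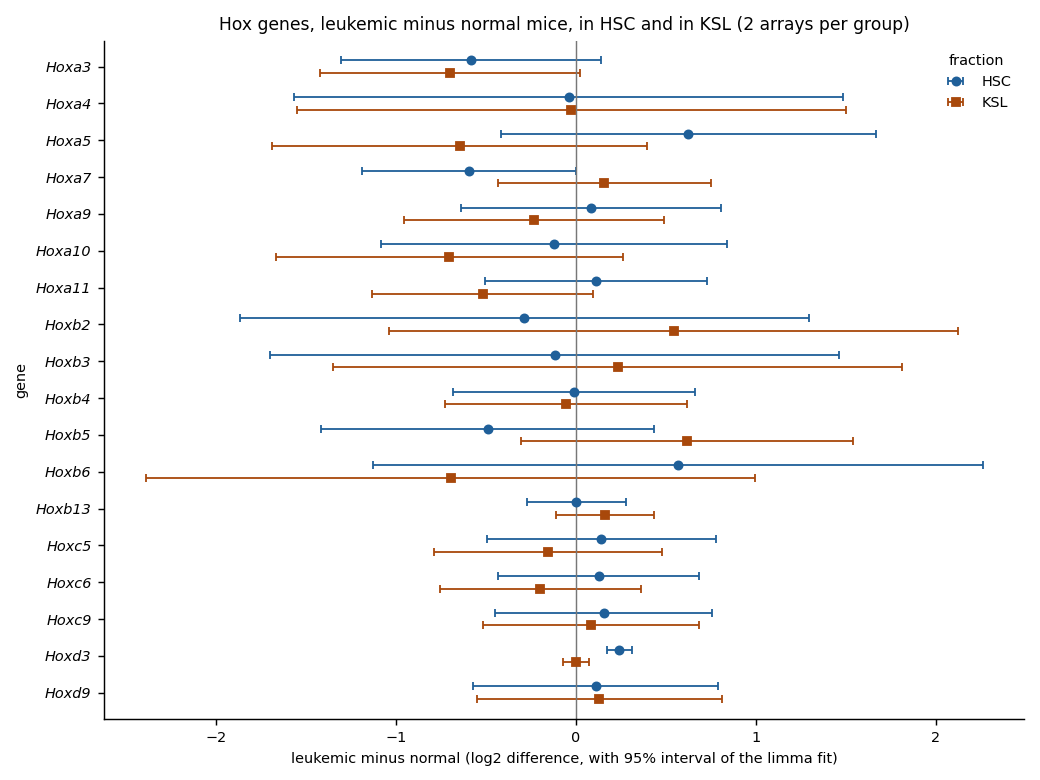
Leukemic minus normal log2 difference of the 18 Hox genes described one by one, in HSC (circles) and KSL (squares); bars are 95% intervals of the limma fit, which pools the spread of all 4 groups, with 2 arrays per group. All KSL intervals include 0, the HSC intervals of Hoxa7 and Hoxd3 do not, and Hoxa3 lies below 0 in both fractions, at -0.58 and -0.70.

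Among the members above the dim level, Hoxa7 had the smallest unadjusted p in HSC, at -0.59 ± 0.23 in exposed against normal HSC (adjusted p = 0.362), with both exposed arrays below both normal ones. Hoxa3 had differences of -0.58 ± 0.28 in HSC (adjusted p = 0.449) and -0.70 ± 0.28 in KSL (0.644), with exposed arrays below normal arrays in both fractions. The 95% interval of the KSL value ran from -1.43 to 0.019. The differences over its other 3 probe sets were 0.47, -0.63 and -1.89 in HSC and -0.68, -0.23 and -0.31 in KSL.

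In KSL, 7 of 9 Hoxa genes had differences below 0, with a cluster median of -0.23. Over all 18193 genes, 8851 were below 0 and 7731 above. Of the 7 Hoxa genes above the dim level, 6 were below 0, with a median of -0.52. Hoxa11 is among these 7 only through normal KSL, the higher side of this comparison, and the median of -0.52 is its own value. Its place there is thus no separate evidence of a lower level in exposed cells. Hoxa10 was at -0.70 ± 0.37 (adjusted p = 0.811), Hoxa5 at -0.65 ± 0.40 (0.892), Hoxa11 at -0.52 ± 0.23 (0.732) and Hoxa9 at -0.23 ± 0.28 (1), and exposed arrays lay below normal ones for each. None of these passed. The other probe set of Hoxa9 gave -0.42 in KSL and -0.72 in HSC, with both exposed arrays below both normal ones in each fraction, against 0.085 in HSC for the one used. Hoxb5 was at 0.62 ± 0.35 in KSL (adjusted p = 0.858), where it read near the dim level, and Hoxb2 at 0.54 ± 0.60 (1), both with exposed arrays above normal ones. In HSC the median was -0.042 over the Hoxa and -0.00010 over the Hoxb genes.

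With 2 arrays per group these results leave room for changes of some size. The 95% interval of the HSC difference was -0.69 to 0.66 for Hoxb4, -0.64 to 0.81 for Hoxa9, -1.42 to 0.43 for Hoxb5 and -1.09 to 0.84 for Hoxa10. In KSL it was -0.73 to 0.62 for Hoxb4 and -0.96 to 0.49 for Hoxa9. Without exposed HSC array 1, Hoxb1, which is at the floor on 7 arrays, passed in HSC and in the interaction described next, and with an intensity trend and robust spread Hoxd3 passed in HSC.

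Whether the leukemic difference was unequal in HSC and KSL was tested as an interaction, for which 0 of 33 Hox genes passed in limma (0.00550% of all genes) and 1, Hoxd3, had an unadjusted p under 0.05 (9.09%). Hoxa5 had an HSC difference of 0.62 and a KSL difference of -0.65, with an interaction of 1.27 ± 0.56 (adjusted p = 0.61). Its second probe set gave -0.27 in HSC and -0.58 in KSL, so the direction in HSC turned with the probe set. Hoxb5 had -0.49 and 0.62, with an interaction of -1.11 ± 0.50 (0.614). For Hoxa7 both exposed HSC arrays lay below normal HSC and both exposed KSL arrays above normal KSL, with an interaction of -0.75 ± 0.32 (0.592). The fraction difference is therefore not shown to be unequal in the 2 kinds of mice for any Hox gene, although 1 passed in normal and 6 in leukemic mice.

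Markers and quality readings that differed between exposed and normal groups stand beside these results, and their part was not tested. The neutrophil and monocyte marker mean was 9.12 and 6.27 in normal HSC against 10.05 and 9.66 in exposed HSC, and the granulocyte-monocyte progenitor mean moved as given above. The long-term HSC marker mean was 8.66 and 8.59 in normal against 8.33 and 8.13 in exposed HSC. In KSL it was 6.20 and 6.25 in normal against 5.81 and 5.60 in exposed cells. Mast cell and basophil markers averaged 7.34 and 7.58 in normal against 8.37 and 8.33 in exposed KSL. Megakaryocyte markers averaged 7.53 and 8.43 in normal against 6.90 and 7.16 in exposed KSL. In KSL, the mean of the 9 multipotent and lymphoid-primed markers was 8.42 to 8.75 in normal against 7.41 to 7.53 in exposed cells. Their median difference was -1.16, against 0.00 over all genes. Of these 9, 7 had an unadjusted p under 0.05 (7.95% of all genes) and 1 passed in limma (0.0440%), Il12a, named after its values were seen, which was lower in exposed KSL at -1.16 ± 0.059 (adjusted p = 0.0426). The 3 prime minus 5 prime difference of Tfrc was -2.04 and -1.74 in normal HSC against -0.36 and -0.75 in exposed HSC, and that of Gapdh 0.78 and 0.83 against 1.19 and 1.03. Both male-pattern arrays belong to normal groups.

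Genes that work with Hox proteins were counted from lists written down with earlier results of these data known. Of 8 measured TALE partners, 1 passed between fractions in each kind of mouse (1.80% of all genes in normal and 5.86% in leukemic mice). This was Meis1, which is known to form complexes with Hoxa9. It read 10.28 and 10.38 in normal HSC, 9.76 and 10.09 in exposed HSC, 9.12 and 8.84 in normal KSL, and 7.93 and 7.73 in exposed KSL. Every HSC array lay above every KSL array, by 1.35 ± 0.16 in normal mice (adjusted p = 0.0406) and 2.09 ± 0.16 in leukemic mice (0.0114). The normal-mouse call was lost without normal HSC array 1 (0.0766) or 2 (0.101), normal KSL array 1 (0.107) or 2 (0.171) or either exposed KSL array (0.118), and with the most variable probe set (1.88, 0.0672) or array weights (0.0652), and the leukemic-mouse call without exposed KSL array 1 (0.0911) or 2 (0.0765). The Pbx family gene Pbx3 had differences of 1.61 ± 0.25 (0.0652) and 1.12 ± 0.25 (0.0804), and Pbx4 of 0.51 ± 0.15 (0.22) and 0.80 ± 0.15 (0.0602). Over both kinds of mice Pbx3 was higher in HSC by 1.37 ± 0.17 (0.0189), a call lost without normal KSL array 1 (0.0683) or 2 (0.0755) or exposed KSL array 1 (0.0911) or 2 (0.0838), and with the most variable probe set (1.97, 0.0792). Pbx4 was higher by 0.65 ± 0.11 (0.0334), a call lost without normal HSC array 1 (0.0658) or 2 (0.0516), exposed HSC array 1 (0.0732) or 2 (0.0639), normal KSL array 1 (0.0848) or 2 (0.107) or exposed KSL array 1 (0.102) or 2 (0.07), and with the mean of its probe sets (0.31, 0.19) or array weights (0.0821).

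Of 19 genes of MLL, menin and their associated complexes, 1 passed in normal mice (1.80% of all genes) and 2 in leukemic mice (5.86%). Mllt3, an elongation complex subunit known to maintain human HSC, read 11.24 and 10.92 in normal HSC, 10.08 and 10.33 in exposed HSC, 8.14 and 7.58 in normal KSL, and 7.19 and 7.33 in exposed KSL. It was higher in HSC by 3.22 ± 0.23 in normal (adjusted p = 0.0166) and 2.94 ± 0.23 in leukemic mice (0.012). The normal-mouse call was lost without normal KSL array 2 (0.0663) or either exposed KSL array (0.0733), and the leukemic-mouse call without exposed KSL array 1 (0.1) or 2 (0.0789). With the most variable probe set both were lost, at 3.42 (0.0958) in normal and 2.06 (0.155) in leukemic mice. Ash2l, a core subunit of these complexes, was lower in HSC of leukemic mice (difference -0.93 ± 0.14, adjusted p = 0.0389), a call lost without either normal HSC array (0.0629), either normal KSL array (0.0886) or exposed KSL array 1 (0.186) or 2 (0.187). The gene of MLL itself, Kmt2a, had differences of 0.67 ± 0.29 (0.368) and 1.42 ± 0.29 (0.0708). Over both kinds of mice it was higher in HSC by 1.05 ± 0.21 (0.0497), a call lost without normal HSC array 1 (0.0904) or 2 (0.113), normal KSL array 1 (0.151) or 2 (0.136) or exposed KSL array 1 (0.166) or 2 (0.157), and with an intensity trend and robust spread (0.0533).

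Of 23 measured Polycomb genes, 0 passed in limma in each of the 5 planned comparisons, with 2 at an unadjusted p under 0.05 between fractions of normal mice (16.2% of all genes), 6 in leukemic mice (23.0%), 4 in exposed against normal HSC (13.8%), 1 in KSL (7.95%) and 1 in the interaction (9.09%). Pcgf2 had fraction differences of 1.90 ± 0.40 (adjusted p = 0.115) and 1.81 ± 0.40 (0.0782), and Cbx6 of 1.32 ± 0.23 (0.0836) and 0.86 ± 0.23 (0.121). Over both kinds of mice these 2 passed, Pcgf2 at 1.86 ± 0.28 (0.0268; lost without exposed HSC array 1 (0.0574) or 2 (0.0617), normal KSL array 1 (0.0978) or 2 (0.0901) or exposed KSL array 1 (0.113) or 2 (0.107)) and Cbx6 at 1.09 ± 0.17 (0.0274; lost without exposed HSC array 1 (0.0612) or 2 (0.0509), normal KSL array 1 (0.0987) or 2 (0.0955) or exposed KSL array 1 (0.0912) or 2 (0.106)). Of all genes, 9.68% passed in the comparison over both kinds of mice, so 2 of 23 Polycomb genes is near that share. With the mean of its probe sets Cbx6 was at 0.91 (0.126) and with the most variable one at 0.73 (0.373), and did not pass. In exposed against normal HSC, Ring1 was at -0.84 ± 0.19 (0.202) and Ezh2, the methyltransferase of the second complex, at -0.52 ± 0.13 (0.221), and in KSL Ezh2 was at -0.43 ± 0.13 (0.521) and Bap1 at -0.50 ± 0.21 (0.683). In the interaction Ring1 was at -0.81 ± 0.27 (0.477) and Phf19 at -0.37 ± 0.14 (0.561). Of the Cdx factors, which switch on Hox genes in embryonic blood, Cdx4 was at the floor on all 8 arrays, Cdx1 lay between 3.32 and 3.63, and Cdx2 between 5.16 and 5.71. Cdx2 had differences of -0.045 ± 0.15 (0.995) and 0.39 ± 0.15 (0.206) between fractions. The homeobox genes that flank the clusters, Evx1 and Evx2, had differences of -0.074 ± 0.091 (0.809) and 0.18 ± 0.22 (0.818) in normal mice. In limma 0 of the 3 Cdx and 2 Evx genes passed in these 5 comparisons, and 1, Cdx2 in leukemic mice, had an unadjusted p under 0.05 (23.0% of all genes).

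Of 12 genes reported downstream of Hox and Meis proteins, 3 were higher in HSC of normal mice (1.80% of all genes passed), and 5 were higher and 1 lower in HSC of leukemic mice (5.86%). Erg was higher by 0.93 ± 0.087 (adjusted p = 0.0252) and 1.37 ± 0.087 (0.00911), Lmo2 by 0.61 ± 0.063 (0.0301) and 0.94 ± 0.063 (0.0102), and Mecom by 2.82 ± 0.35 (0.043) and 3.30 ± 0.35 (0.0187), all transcription regulators of stem cells. In leukemic mice Hlf was also higher, by 2.43 ± 0.32 (0.0283), and Sox4, by 1.09 ± 0.16 (0.0366), while Myb, which drives progenitor growth, was lower (-0.71 ± 0.12, 0.0479). The normal-mouse call of Erg was lost without normal HSC array 1 (0.0553) or 2 (0.0727), normal KSL array 1 (0.102) or 2 (0.141) or either exposed KSL array (0.0738). That of Lmo2 was lost without normal HSC array 1 (0.0653) or 2 (0.0807), normal KSL array 1 (0.111) or 2 (0.157) or either exposed KSL array (0.0693), and that of Mecom without normal HSC array 1 (0.0891) or 2 (0.103), either exposed HSC array (0.0562), normal KSL array 1 (0.163) or 2 (0.148) or either exposed KSL array (0.0912). In leukemic mice the call of Erg was lost without exposed KSL array 1 (0.0718) or 2 (0.0631), that of Lmo2 without exposed KSL array 1 (0.0672) or 2 (0.0549), and that of Mecom without exposed KSL array 1 (0.0911) or 2 (0.0897). The call of Hlf was lost without either normal KSL array (0.0644) or exposed KSL array 1 (0.163) or 2 (0.15), that of Sox4 without either normal HSC array (0.0616), exposed HSC array 2 (0.0737), either normal KSL array (0.05) or exposed KSL array 1 (0.192) or 2 (0.173), and that of Myb without exposed HSC array 1 (0.104) or 2 (0.0716), either normal KSL array (0.104) or exposed KSL array 1 (0.224) or 2 (0.203). Over both kinds of mice Cd34, which is low on long-term HSC, was lower in HSC (-1.09 ± 0.15, 0.0228), a call lost without normal HSC array 2 (0.0558), normal KSL array 1 (0.0856) or 2 (0.0846) or exposed KSL array 1 (0.103) or 2 (0.0877). The choice of probe set also ended calls. With the mean of probe sets, Erg in normal mice was at 0.84 (0.105), Hlf in leukemic mice at 2.05 (0.0538) and Sox4 in leukemic mice at 0.45 (0.111). With the most variable one, Erg was at 0.75 (0.307) in normal and 1.54 (0.0556) in leukemic mice. The normal-mouse call of Lmo2 was lost with a common median (0.0997), and it, like that of Myb in leukemic mice, was lost once genes with a floor value (0.123 and 0.0698) or a mean below the dim level (0.12 and 0.0674) were dropped. Array weights ended the calls of Erg (0.0501), Lmo2 (0.0783) and Mecom (0.0942) in normal mice and of Mecom (0.0515) and Sox4 (0.067) in leukemic mice, and an intensity trend with robust spread that of Myb (0.0501). Every call named here for a TALE, MLL or downstream gene in 1 kind of mouse was also lost with only the 4 arrays compared and without the male-pattern arrays. The list holds known HSC genes, so it is not independent of the sort. In exposed against normal cells, limma passed 0 of these 12, of the 8 TALE and of the 19 MLL genes in either fraction, with 4, 0 and 2 at an unadjusted p under 0.05 in HSC (13.8% of all genes) and 5, 1 and 4 in KSL (7.95%).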

How the data were processed

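The authors deposited log2 values for 45101 probe sets on 8 arrays, and the submitters' processing notes name RMA (no version is given in the sources used here), and these values have a floor of 10 before the logarithm. Per the labels' protocols RNA was extracted with Trizol, but the design text names a Nugen amplification kit and the labelling field a standard cRNA protocol, so which was used was not settled. Samples were grouped by their labels for disease state and cell type. The titles of both exposed KSL samples run a normal and a leukemic wording together, so their group rests on the disease state label, and sample descriptions that speak of embryos were not used. All 8 value columns were used (0 left over).

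Names of probe sets come from the platform annotation, with gene IDs checked against RefSeq GRCm38.p6 (34945 with 1 symbol, 932 with several, 9160 with none, 64 controls), and the one with the highest mean stood for a gene. Limma 3.58.1 in R 4.3.3 fitted 4 group means over 8 arrays (residual df 4). Each test was two-sided, and p-values were adjusted (Benjamini-Hochberg) across 18193 genes with a threshold of 0.05, and ± is the standard error of a difference. The fit was tested on simulated data with each group's own spread. There it made more false calls than its threshold allows for exposed against normal HSC, the comparison between the more variable groups. For HSC against KSL in normal mice, where Hoxb5 passed, false calls were slightly above the threshold too. Tables were handled in Python 3.11.15 (pandas 2.3.3, numpy 2.4.6) and drawn with matplotlib 3.10.9. Members and gene lists were chosen with earlier results of these data known. Named genes are the 17 Hox genes above the dim level in a group, any other Hox gene that passed (Hoxd3), and list genes that passed or had the smallest p; others were named after their values were seen. In all, 20 other settings were tried, 8 of them leaving out 1 array. The labels do not say whether same-numbered arrays share animals. Same-numbered deviations from the group means correlated at -0.035 to 0.087, which cannot exclude shared animals. Array 1 of both normal groups had the male pattern, and pairing was not settled.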

Additional observations from a re-analysis of the deposited data

How the results depend on the processing

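Every Hox difference that passed kept its direction under each of the other settings that gave it a value (Hoxb6 and Hoxd3 had floor values and Hoxd3 was below the dim level, so they drop out there, and the average over both kinds of mice was not fitted to 4 arrays), but the number passing changed. Between fractions of normal mice (1 passing, median 0.31), 2 passed with the most variable probe set (Hoxa9, Hoxb5) or a common median (Hoxa3, Hoxb5), 3 once genes with a floor value, or those whose mean over all 8 arrays was below the dim level, were dropped (Hoxa3, Hoxa10, Hoxb5), and 0 with only the 4 arrays compared, the male term, the replicate block or without male-pattern arrays. Leaving out 1 array gave 0 to 2. The median was 0.76 above the dim level by that mean, a filter that keeps 15 Hox genes and not the 17 above it in a group, 0.21 without male-pattern arrays and 0.18 to 0.31 with 1 array left out. In leukemic mice (6 passing, median 0.21), 0 passed with the 4 arrays, the male term, the replicate block or without male-pattern arrays, and 0 to 6 with 1 array left out. The median was 0.15 with the most variable probe set, 0.12 with cyclic loess, 0.27 without floor values (24 genes) and 0.80 over the 15 genes. Hoxa4, Hoxb2 and Hoxb6 are among the 15 only through HSC, the higher side of these comparisons, and their KSL means were below the dim level. The medians of 0.76 and 0.80 are thus raised by the filter and are no separate evidence of a higher level in HSC. In exposed against normal HSC, 1 passed with trend and robust spread, and 0 to 1 with 1 array left out (medians -0.053 to 0.056). In KSL the median was 0.063 with a common median, a setting that put the median over all genes at 0.063 too, and -0.055 over the 15 genes. In the interaction it was 0.069 over the 15 genes, 0.105 without male-pattern arrays and 0.00 to 0.17 with 1 array left out, when 0 to 1 passed. With the replicate number as a block, limma passed 0 Hox genes in all 5 comparisons. Whether the numbers pair samples was not settled, so what this loss means cannot be told. Genes near the floor or dim level, among them 16 Hox genes, limit what can be read as change. The setting without male-pattern arrays was chosen after seeing the data.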

Other observations

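Hoxb5os, an antisense gene whose RefSeq model overlaps Hoxb5 and Hoxb6, is no member of the Hox list and was named after its values were seen. It read 7.95 and 6.999 in normal HSC, 5.09 and 4.82 in exposed HSC, 5.39 and 6.06 in normal KSL, and 6.15 and 5.55 in exposed KSL. Both exposed HSC arrays lay below both normal ones, at -2.52 ± 0.44 (limma adjusted p = 0.149), while in KSL the groups overlapped, at 0.12 ± 0.44 (1). The interaction was -2.64 ± 0.62 (0.363), and the HSC minus KSL difference was 1.75 ± 0.44 in normal (0.157) and -0.89 ± 0.44 in leukemic mice (0.316). None of these passed. Hoxb5 itself had -0.49 ± 0.35 in exposed against normal HSC (0.619).

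A probe set shared by Hoxb7 and Hoxb8 read 4.14 and 4.04 in normal HSC, below the dim level, and was at the floor on the other 6 arrays.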
